A study of Rattus norvegicus with 10 samples.

Results

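The retinas of SD and F344 rats that had been raised in cyclic hyperoxia were compared at postnatal day 3, gene by gene. The comparison took every pool of the exposed retinas, 2 of SD (Sprague Dawley) and 3 of F344 (Fischer 344), and so 5 of the 10 arrays of the study. The exposed mothers and litters had entered an oxygen chamber no later than 12 hours after birth, and the gas then alternated between 80% and 21% oxygen every 24 hours until the tissue was taken. The other 5 arrays held retinas of the same age from room air, 2 pools of F344 and 3 of SD, and served to show which strain differences were also present without exposure. Each array carried biotin-labelled RNA of 1 pool, made from 3 rats of 2 litters, and pools of different rats were the replicates. No genotype or other agent is given for any group. The study's design calls F344 resistant and SD susceptible to oxygen-induced retinopathy.

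Cyclic hyperoxia in newborn rodents is used to model retinopathy of prematurity, because the retinal vessels of a newborn rat are still growing outward and high oxygen stops their growth. Cells sense oxygen through prolyl hydroxylases, which mark the hypoxia-inducible factors for destruction while oxygen is present. When oxygen is low, these factors persist, bind short DNA sites that often read ACGTG and switch on genes of glycolysis, of vessel growth such as Vegfa, and of the sensing system itself. F344 is an inbred strain and SD an outbred stock, and rat strains differ by inheritance at many loci, above all in the major histocompatibility region, called RT1 in the rat. That region holds the class I and class II genes, which present peptides to T cells, and the genes that cut and transport those peptides.

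The arrays gave log2 expression values with 1 decimal, from 3.1 to 14, for 27342 probe sets, of which 15097 had 1 gene symbol and stood for 14324 genes. Array medians lay between 5.9 and 6.0. Retinal markers were present in the 5 exposed arrays, with Pax6, a transcription factor of the eye field, at 11.5 to 11.7 and Crx, a transcription factor of photoreceptors, at 10.9 to 11.2. For Pecam1 and Kdr the platform annotation used gave no probe set of their own. The first principal component, with 34.1% of the variance, put F344 hyperoxia pool 3 at 30.08 and the other 4 exposed pools between -13.35 and -6.436, so this pool stood apart and results are also given without it. Among the room-air arrays SD pool 3 stood apart in the same way, at 36.41. The RNA came from whole retinas, and a lower signal can come from fewer cells of a type or from less RNA per cell, which cannot be told apart here.

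SD and F344 differed at 68 of the 14324 genes in hyperoxia, 0.475% of those tested. SD was higher at 34 genes (0.237%) and lower at 34 (0.237%), by limma with a Benjamini-Hochberg adjusted p under 0.05, the rule meant below wherever a gene is said to have passed. Among the genes with the largest differences were Mospd1, Tap2, Ly6g6e and Ly6g6d, all lower in SD, and Slc26a7 and RT1-Bb, both higher in SD. The differences ran from 0.53 to 2.22 log2 units among genes higher in SD and from 0.60 to 4.48 in size among genes lower in SD. Every one of the 68 had SD pools that did not overlap the F344 pools, which by itself was true of 15.4% of all genes. Without F344 hyperoxia pool 3, 29 of the 34 higher and 25 of the 34 lower genes still passed. Leaving out an SD hyperoxia pool ended more calls, but such a fit keeps 1 SD pool and so has a wider standard error whatever that pool reads. Without SD pool 1 or pool 2 the difference was -1.30 and -1.30 for Ankrd37, and -0.67 and -0.97 for L3hypdh. A call said below to end without an SD hyperoxia pool is thus not by itself a sign that it rested on that pool. Across the 10 fits that each left out 1 array, 17 genes passed every time, 9 higher and 8 lower in SD.

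Mospd1, which encodes a membrane protein with a major sperm protein domain, showed the widest gap of all genes tested. It read 8.7, 9.0 and 9.1 in the F344 hyperoxia pools and 4.6 and 4.3 in the SD hyperoxia pools. All 3 F344 pools lay above both SD pools by a wide margin, a difference of -4.48 (SE 0.14, adjusted p = 1.48e-08). No fold is given, since neither signal over background nor strain sequence under the probes was analysed. A second Mospd1 probe set differed by -4.18. In room air the gap was -4.47, from 8.9 in both F344 pools to 4.3, 4.6 and 4.4 in SD.

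The strongest rise in SD was that of Slc26a7, which encodes an anion exchanger. Its values were 5.3, 5.2 and 5.5 in F344 hyperoxia and 7.5 and 7.6 in SD hyperoxia, so the groups were far apart and each was tight. SD stood 2.22 log2 units higher (SE 0.11, adjusted p = 7.07e-07), against 2.13 in room air. The F344 values lay below the array medians of 5.9 to 6.0, and no fold is given, for the reason stated for Mospd1. Rxfp1, the relaxin receptor, read 6.7, 6.8 and 6.6 in F344 and 8.5 and 8.4 in SD, again without overlap, a rise of 1.75 (SE 0.17, adjusted p = 3.15e-04). Pter, a gene of the phosphotriesterase family, was higher in SD by 1.63 (4.7, 5.1 and 5.1 against 6.7 and 6.5) and the tetraspanin gene Cd9 by 1.45 (8.2, 8.4 and 8.6 against 9.8 and 9.9). All 4 passed in each of the 10 fits that left out an array.

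**Figure D1:**
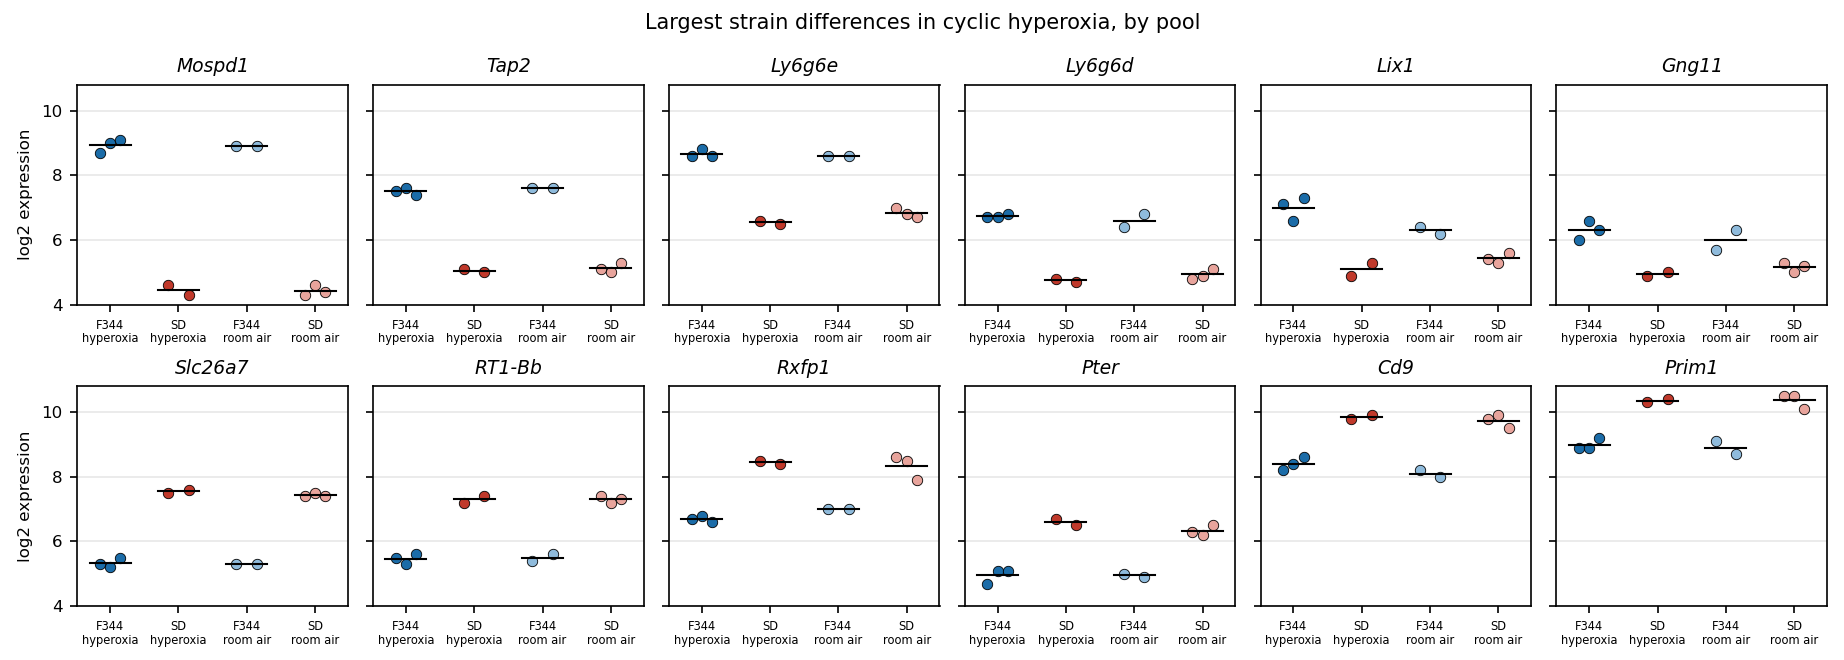
Deposited log2 expression (y axis) of the 6 genes most lowered and the 6 most raised in SD relative to F344 in cyclic hyperoxia, with 1 point per pool, a horizontal line at each group mean and dark symbols for hyperoxia. In every panel the SD pools lie wholly on one side of the F344 pools in hyperoxia, and the paler room-air pools show a gap of the same direction.

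Other genes of high rank covered many functions. Lower in SD were Il33, a cytokine released by damaged cells (-1.33, SE 0.12), Gng11, a gamma subunit of G proteins (-1.35), Fgd3, an exchange factor of small GTPases (-1.30), Hopx, a homeodomain protein that does not bind DNA (-1.18), and Col5a3, a chain of type V collagen (-1.08). Il33 read 7.3, 7.5 and 7.5 in F344 and 6.1 in both SD pools, and 6.1 again in all 3 SD room-air pools. Higher in SD were Tmco3 (1.27), the lysosomal sulfatase gene Arsb (1.25), Cldn11, a claudin of tight junctions (1.22), Slc25a24, a mitochondrial carrier (1.02), Fxyd1, a regulator of the sodium pump (0.97), and Wnt7b, a Wnt ligand (0.90). For Arsb a second probe set rose as well (1.18, adjusted p = 7.20e-04), whereas the second probe set of Slc25a24 differed by 0.18 (adjusted p = 0.935) and so was not read as a change. Lrp1b, a receptor of the low-density lipoprotein family, was called lower from its brightest probe set (-1.05); its other probe sets stood between -0.77 and -0.05, and of those only the one at -0.77 passed. Il33, Col5a3, Tmco3 and Cldn11 passed in each of the 10 fits that left out an array. The calls of Fgd3, Gng11, Fxyd1 and Slc25a24 ended without either SD hyperoxia pool (adjusted p = 0.0655 to 0.196), and that of Hopx ended without SD hyperoxia pool 2 (adjusted p = 0.137). The calls of Arsb, Wnt7b and Lrp1b ended without either SD hyperoxia pool too (adjusted p = 0.195 to 0.435) and also without 1 or more F344 arrays. These were F344 hyperoxia pools 1 and 2 and both F344 room-air pools for Arsb (0.110, 0.0789, 0.0576 and 0.0576), F344 hyperoxia pool 1 for Wnt7b (0.0577), and F344 hyperoxia pool 2 (0.0678), both F344 room-air pools (0.0646 each) and SD room-air pool 1 (0.0608) for Lrp1b.

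Most strain differences of the exposed retina were also seen in room air. The group means there come from other pools, but both comparisons took their error from 1 fit of all 10 arrays and so are not independent: 19 of the 68 hyperoxia calls were lost without F344 room-air pool 1 and 19 without pool 2. In room air 79 genes passed (0.552% of those tested), 54 higher in SD (0.377%) and 25 lower (0.175%). Of the 34 genes higher in SD in hyperoxia, 28 were higher in room air too, which is 82.4% of the hyperoxia calls and 51.9% of the room-air calls. All 34 lay above 0 in room air, against 6690 of all 14324 genes. Their median was 0.94 in hyperoxia and 0.84 in room air. Their SD and F344 pools did not overlap in room air either. The matching share of all genes was counted only in hyperoxia (8.04% with SD higher). Of the 34 genes lower in SD, 16 were lower in room air too, 47.1% of the hyperoxia calls and 64.0% of the room-air calls. Among these 34 the median was -0.94 in hyperoxia and -0.69 in room air. In room air 32 lay below 0 (7105 of all 14324 genes), and Igfbp2 and Pfkfb3 lay above it. No gene passed as higher in one exposure and lower in the other (0 of 14324). Over all 14324 genes the strain differences of the 2 exposures correlated with Pearson's r = 0.204 and a Spearman coefficient of 0.005. These are descriptions across genes, which are not independent replicates.

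**Figure D2:**
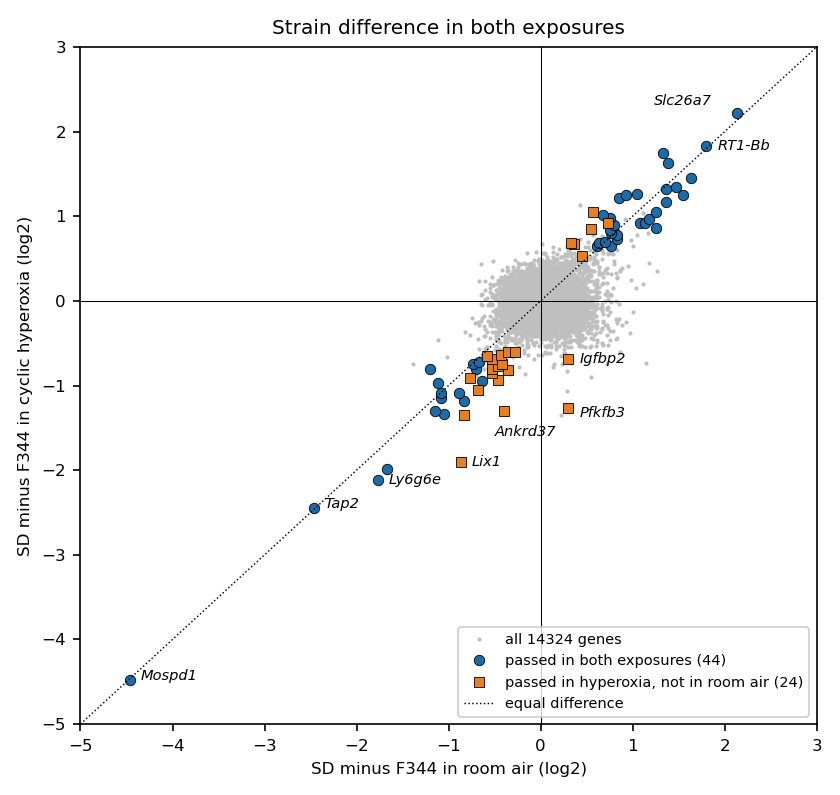
SD minus F344 in cyclic hyperoxia (y axis, log2) against SD minus F344 in room air (x axis, log2) for all 14324 genes, with circles for the 44 genes that passed in both exposures and squares for the 24 that passed in hyperoxia but not in room air. Most marked genes lie near the dotted line of equal difference, while Igfbp2 and Pfkfb3 lie below 0 in hyperoxia and at 0.30 in room air.

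Whether a strain difference depended on exposure was tested directly, as the strain difference in hyperoxia minus that in room air. No gene passed (0 of 14324), and in each alternative fit run the count was again 0. At an unadjusted p under 0.05 there were 1000 genes (6.98%), 656 of them with values below 0 (4.58%), meaning SD relatively lower in hyperoxia. Of the 68 genes that differed in hyperoxia, 9 were among these 1000: Cldn11 and Oacyl of the higher genes, and Ankrd37, Chchd5, Igfbp2, L3hypdh, Lix1, Oprk1 and Pfkfb3 of the lower. Lix1, a gene of the developing limb and nervous system, read 7.1, 6.6 and 7.3 in F344 hyperoxia and 4.9 and 5.3 in SD hyperoxia, against 6.4 and 6.2 in F344 and 5.4, 5.3 and 5.6 in SD in room air. The strains did not overlap in either exposure, and the gap was -1.90 (SE 0.19, adjusted p = 3.55e-04) in hyperoxia and -0.87 in room air (adjusted p = 0.0792). Oprk1, the kappa opioid receptor, went the other way, with a gap of -0.80 in hyperoxia and -1.20 in room air. For these 9 genes the difference between exposures did not pass after adjustment over all probe sets.

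The major histocompatibility region held the densest group of strain differences. On chromosome 20, which carries it, 11 of 434 measured genes passed (2.53%), against 0.475% of all genes. Placed in the gene order of the assembly GRCr8, 3 of them (Ly6g6d, Ly6g6e and Ly6g6c) were direct neighbours among the measured genes, and 5 more (RT1-Bb, RT1-DOb, Tap2, Tap1 and Psmb9) lay together with 1 other measured gene between Tap2 and Tap1. Both directions occurred side by side: RT1-Bb and RT1-DOb were higher in SD, while Tap2, Tap1, Psmb9 and the 3 Ly6 genes were lower. Other genes of the same kinds did not pass and lay on either side of 0, such as the class II genes RT1-Db1 (0.08) and RT1-Da (-0.33), and Ly6g5b (0.47) and Ly6g6f (-0.55). The remaining 3 were Msh5, a homologue of mismatch repair genes that acts in meiosis (0.70), Gpsm3, a modulator of inhibitory G proteins (-0.85), and Clic2, which lay far from the region near the start of the chromosome (-0.80).

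Among the peptide-supply genes, Tap2, a subunit of the transporter that moves peptides to class I molecules, read 7.5, 7.6 and 7.4 in F344 hyperoxia and 5.1 and 5.0 in SD hyperoxia. The strains were fully apart, at -2.45 (SE 0.12, adjusted p = 5.09e-07), and room air gave -2.47. Its partner Tap1 read 5.7, 5.9 and 5.4 in F344 and 4.8 and 4.6 in SD, again apart but by less, at -0.97 (SE 0.14, adjusted p = 0.00715), with -1.12 in room air. Psmb9, a catalytic subunit of the immunoproteasome, which cuts those peptides, read 5.8, 5.6 and 5.7 in F344 and 4.7 and 4.8 in SD, a difference of -0.95 (SE 0.11, adjusted p = 0.00119). In the exposed SD pools these 3 genes read below the array medians of 5.9 to 6.0. Neither signal over background nor strain sequence under the probes was analysed for them. Tap2 passed in all 10 fits that left out an array. The call of Tap1 ended without SD hyperoxia pool 1 (adjusted p = 0.0754) or pool 2 (0.192), and that of Psmb9 without SD hyperoxia pool 1 (0.0540). Of 15 measured genes of antigen processing these 3 were called lower, against 0.237% of all genes, and 0 rose. All 15 lay below 0 (median -0.08, against 0.00 for all genes). That last count rested on F344 hyperoxia pool 3: without it 7 lay below 0 and 4 above, and the median was 0.00.

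Tap1 and Psmb9 lie head to head, and their start regions are shown because both genes were lower in SD in both exposures from starts only 457 bases apart. The windows run from 250 bases before to 50 after each start, are those of RefSeq on GRCr8, written 5′ to 3′ on each gene's own strand, and share 44 bases. They lie at chr20:4668494-4668793 on the minus strand for Tap1 and at chr20:4668750-4669049 on the plus strand for Psmb9. Capitals mark the core of the interferon-stimulated response element, read as GAAA, 2 bases of any kind and GAAA again, on either strand.
Tap1: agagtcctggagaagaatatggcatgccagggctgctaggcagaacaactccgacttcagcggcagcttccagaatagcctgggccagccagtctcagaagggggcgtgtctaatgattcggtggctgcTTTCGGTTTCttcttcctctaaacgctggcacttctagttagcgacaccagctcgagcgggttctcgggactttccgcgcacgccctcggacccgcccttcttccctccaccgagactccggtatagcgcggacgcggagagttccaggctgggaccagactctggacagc
Psmb9: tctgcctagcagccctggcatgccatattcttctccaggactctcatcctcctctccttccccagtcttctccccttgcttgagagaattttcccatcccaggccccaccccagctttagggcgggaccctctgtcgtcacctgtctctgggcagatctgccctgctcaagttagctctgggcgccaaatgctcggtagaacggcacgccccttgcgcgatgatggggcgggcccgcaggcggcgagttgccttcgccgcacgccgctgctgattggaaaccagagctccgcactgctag
Tap1 held 1 match, on the strand opposite to the one printed and 121 bases before the start, and Psmb9 held 0. Such a match was present in 3.92% of all 33469 windows of this length. A match describes the letters of the reference assembly and is neither a site nor a cause, and the sequences of SD and F344 rats were not used.

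Of 33 measured RT1 genes, 2 were higher in SD (0.237% of all genes), 0 were lower (0.237%) and 31 did not pass (median -0.02). RT1-Bb, the beta chain of a class II molecule, read 5.5, 5.3 and 5.6 in F344 hyperoxia and 7.2 and 7.4 in SD hyperoxia. The groups were apart, and SD was higher by 1.83 (SE 0.13, adjusted p = 1.21e-05), with 1.80 in room air. RT1-DOb, the beta chain of the class II molecule that restrains peptide loading, read 5.1, 4.9 and 5.0 in F344 and 6.2 and 6.3 in SD, a rise of 1.25 (SE 0.12, adjusted p = 2.87e-04) against 0.93 in room air. RT1-Ba, the alpha chain that pairs with RT1-Bb, stood at 0.48 (adjusted p = 0.240), with values of 4.8, 4.7 and 4.8 in F344 and 5.3 and 5.2 in SD. Both called genes passed in each of the 10 fits that left out an array. These genes are close relatives of each other and vary between strains, and probe-level signal was not analysed here.

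The 3 Ly6 genes encode small surface proteins held by a lipid anchor. Ly6g6e read 8.6, 8.8 and 8.6 in F344 hyperoxia and 6.6 and 6.5 in SD hyperoxia, and Ly6g6d read 6.7, 6.7 and 6.8 against 4.8 and 4.7. Both were far lower in SD, with no overlap, at -2.12 (SE 0.12, adjusted p = 1.75e-06) and -1.98 (SE 0.13, adjusted p = 1.14e-05). Ly6g6c, at 7.2, 7.2 and 7.5 against 6.3 and 6.0, was lower by a smaller step (-1.15, SE 0.16, adjusted p = 0.00503). In room air the corresponding differences were -1.77, -1.67 and -1.08. The first 2 passed in all 10 fits that left out an array, while the Ly6g6c call ended without SD hyperoxia pool 2 (adjusted p = 0.153).

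**Figure D3:**
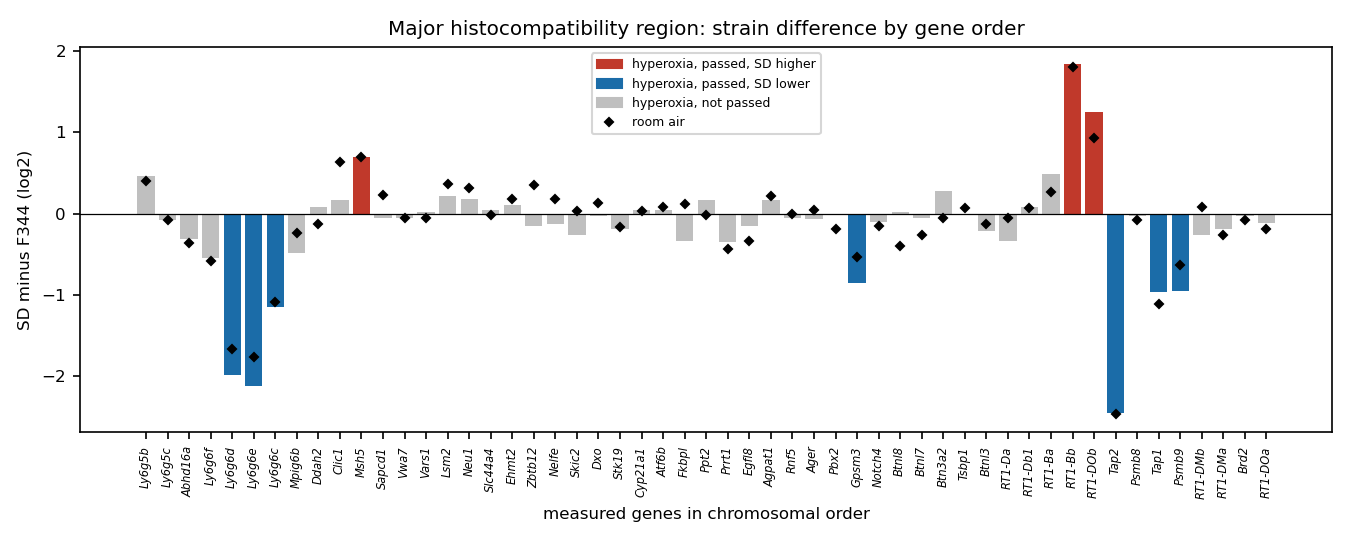
SD minus F344 (y axis, log2) for 53 measured genes of the major histocompatibility region and its surroundings, in chromosomal order and evenly spaced (x axis), with bars for cyclic hyperoxia and diamonds for room air. The 10 coloured bars are the genes that passed in hyperoxia, with 3 neighbours at the left, a group of 5 at the right and Msh5 and Gpsm3 apart from both, and their diamonds lie on the same side of 0.

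Most genes of the low-oxygen response lay lower in exposed SD than in exposed F344 retinas. In room air most lay above 0 (37 of 54, against 6690 of all 14324 genes). Of 54 measured targets of the hypoxia-inducible factors, 2 were lower in SD (Ankrd37 and Pfkfb3), 0 were higher and 52 did not pass. Of all genes 0.237% were lower and 0.237% higher. Of all 54, 40 lay below 0 and 11 above (median -0.17, against 0.00 for all genes, of which 6779 lay below and 6950 above). The SD and F344 pools did not overlap for 21 targets with SD lower, against 7.34% of all genes, and for 1 target with SD higher, against 8.04%. In room air the median was 0.10, and 27 targets were below 0 in hyperoxia and above 0 in room air. The share of all genes with that order was not computed, so this count is not read as a result. The difference between exposures had an unadjusted p under 0.05 for 17 of the 54, all below 0, against 4.58% of all genes below 0. After adjustment 0 of the 17 passed (adjusted p = 0.651 for the smallest). In the fit of all 10 arrays, shifts of this sign were also seen in other lists. Counting both signs, 11 of 42 respiratory chain genes and 12 of 44 cytosolic ribosomal protein genes reached that unadjusted level (6.98% of all genes). Median differences between exposures were -0.37 and -0.34 for these lists, -0.27 for the targets and 0.02 for all genes. The cell cycle list went the other way, with 0 of 34 and a median of 0.175.

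The promoter windows of Ankrd37, Pfkfb3 and Igfbp2 are shown, 3 genes described next that were lower in exposed SD retinas and not called in room air. In all, 18 genes had that result, and these 3 were picked from them by hand. Ankrd37 and Pfkfb3 are listed targets, and Igfbp2 was fixed by name. No ACGTG count is given for the rest of the 18. The windows come from RefSeq on GRCr8 and run from 250 bases before to 50 after the start, at chr16:53001257-53001556, chr17:71944683-71944982 and chr9:81864561-81864860, each on the plus strand. Capitals mark ACGTG, a core of the hypoxia response element, on either strand, and the palindrome CACGTG is a match on both.
Ankrd37: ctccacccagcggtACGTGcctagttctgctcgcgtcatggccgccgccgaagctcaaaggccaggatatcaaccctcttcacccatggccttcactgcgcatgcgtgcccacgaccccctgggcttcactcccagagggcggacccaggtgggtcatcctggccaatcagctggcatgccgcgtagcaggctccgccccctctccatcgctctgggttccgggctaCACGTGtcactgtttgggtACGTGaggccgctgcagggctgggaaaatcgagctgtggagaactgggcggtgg
Pfkfb3: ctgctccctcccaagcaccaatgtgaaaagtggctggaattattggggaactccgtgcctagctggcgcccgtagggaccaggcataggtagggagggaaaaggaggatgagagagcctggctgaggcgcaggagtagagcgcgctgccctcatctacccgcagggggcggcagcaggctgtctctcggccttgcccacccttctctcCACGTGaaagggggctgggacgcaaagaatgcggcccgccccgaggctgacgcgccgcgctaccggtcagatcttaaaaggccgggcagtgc
Igfbp2: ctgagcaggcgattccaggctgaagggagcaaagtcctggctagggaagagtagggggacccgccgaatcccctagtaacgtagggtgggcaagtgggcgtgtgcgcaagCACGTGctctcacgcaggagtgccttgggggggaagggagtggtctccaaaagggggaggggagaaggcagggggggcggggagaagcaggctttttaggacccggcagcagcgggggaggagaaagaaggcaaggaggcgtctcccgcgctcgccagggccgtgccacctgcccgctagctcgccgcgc
Ankrd37 held 4 matches in 3 places, and Pfkfb3 and Igfbp2 held 2 matches each in 1 place. Of all 33469 windows 19.3% held ACGTG, as did 22.8% of the 11823 measured genes with a window and 61.4% of the 44 listed targets with one (27 genes). The list was drawn from known targets, so its share is not independent of the motif.

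Ankrd37, an ankyrin-repeat gene induced by low oxygen, read 7.3, 8.1 and 7.7 in F344 hyperoxia and 6.4 in both SD hyperoxia pools. In room air F344 read 7.1 and 7.3 and SD 6.7, 6.7 and 7.0, so SD was below F344 in both exposures and further below in hyperoxia. The difference was -1.30 in hyperoxia (SE 0.19, 2.46-fold lower, adjusted p = 0.00781) and -0.40 in room air (adjusted p = 0.449). With F344 hyperoxia pool 3 left out it was again -1.30 (adjusted p = 0.0228), and the call ended without SD hyperoxia pool 1 (0.193) or pool 2 (0.153).

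Pfkfb3, which makes the signal that speeds glycolysis, read 7.9, 9.0 and 8.2 in F344 hyperoxia and 7.0 and 7.2 in SD hyperoxia. Both SD pools lay below every F344 pool, whereas in room air the order was turned, with 8.2 in both F344 pools and 8.6, 8.6 and 8.3 in SD. The difference was -1.27 in hyperoxia (SE 0.24, 2.41-fold lower, adjusted p = 0.0442) and 0.30 in room air. The call was near the threshold and ended on leaving out F344 hyperoxia pool 3 (adjusted p = 0.0698), either F344 room-air pool (0.116 each), SD hyperoxia pool 1 (0.667) or 2 (0.346), or SD room-air pool 1 (0.0993) or 2 (0.0964).

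Igfbp2, whose protein binds insulin-like growth factors, was not on the target list but was also lower in exposed SD retinas. It read 7.1, 7.4 and 7.5 in F344 hyperoxia, 6.6 and 6.7 in SD hyperoxia, 8.2 in both F344 room-air pools and 8.4, 8.5 and 8.6 in SD room air. Exposed SD pools were thus the lowest of all and SD room-air pools the highest. The difference in hyperoxia was -0.68 (SE 0.13, 1.61-fold lower, adjusted p = 0.0380), against 0.30 in room air. This call was lost on leaving out F344 hyperoxia pool 2 (adjusted p = 0.131) or 3 (0.119), either F344 room-air pool (0.0878 each), SD hyperoxia pool 1 (0.585) or 2 (0.304), or SD room-air pool 1 (0.0631) or 2 (0.0731). It was the 1 gene lower in SD among 39 angiogenic ligands and receptors (median -0.07) and among 16 genes of the insulin-like growth factor axis (median -0.01).

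**Figure D4:**
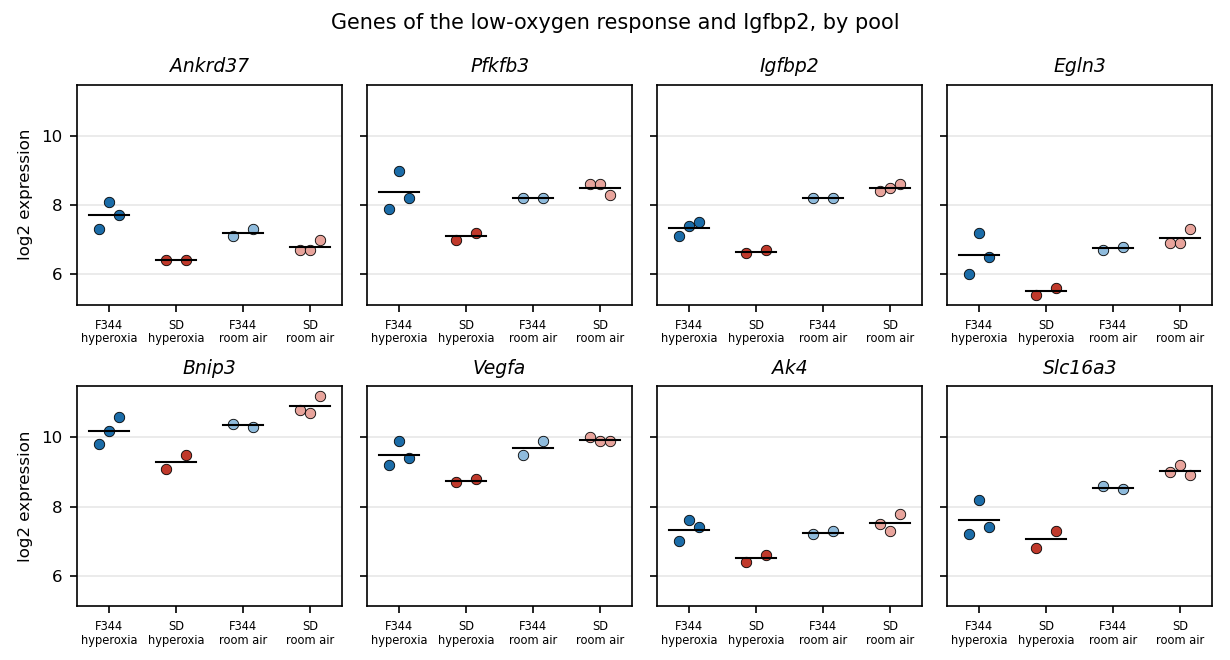
Deposited log2 expression (y axis) of 8 genes in the 4 groups (x axis), with 1 point per pool, a horizontal line at each group mean and dark symbols for hyperoxia. Exposed SD pools lie below every exposed F344 pool in each panel but that of Slc16a3, where 7.3 in SD lies above 7.2 in F344, and no such gap is seen in room air except for Ankrd37.

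Several other targets also had a lower mean in exposed SD without passing, while 11 of the 54 targets lay above 0. Egln3, a prolyl hydroxylase that senses oxygen, read 6.0, 7.2 and 6.5 in F344 hyperoxia and 5.4 and 5.6 in SD hyperoxia, a difference of -1.07 (adjusted p = 0.158). Bnip3, which marks mitochondria for removal, read 9.8, 10.2 and 10.6 against 9.1 and 9.5 (-0.90, adjusted p = 0.141). Vegfa, the growth factor that guides retinal vessels, read 9.2, 9.9 and 9.4 against 8.7 and 8.8 (-0.75, adjusted p = 0.151). In these 3 genes the exposed SD pools lay below all exposed F344 pools, and in room air SD stood at 0.28, 0.55 and 0.23 above F344. Ak4, a mitochondrial adenylate kinase, stood at -0.83 (adjusted p = 0.0850), Pdk1, which keeps pyruvate out of mitochondria, at -0.62 (adjusted p = 0.103), and Hk2, a hexokinase, at -0.78 (adjusted p = 0.729). Slc16a3, the lactate exporter, read 7.2, 8.2 and 7.4 against 6.8 and 7.3, and its groups overlapped (-0.55, adjusted p = 0.722). Egln3, Bnip3, Slc16a3 and Hk2 feature in a published account of these samples, so their direction is not independent evidence.

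The size of this gap depended on which F344 pool was taken. Against F344 hyperoxia pool 2 the exposed SD mean was lower for 46 of 54 targets (median -0.40), and against pools 1 and 3 for 34 each (median -0.10 each). Mean levels of the list were 8.23, 8.62 and 8.29 in the F344 pools and 8.08 and 8.12 in the SD pools, so both SD pools lay below all 3 F344 pools. Without F344 pool 2 the median was -0.10 with 35 of 54 below 0, and without pool 3 it was -0.25 with 42 below 0. Lens markers were also highest in F344 hyperoxia pool 2: their mean was 5.03, 5.83 and 5.20 in the F344 pools and 5.22 and 5.13 in SD, with the crystallin gene Cryba1 at 5.5, 8.2 and 6.8 against 6.6 and 6.3. Of 12 lens genes 0 passed and 11 lay below 0 (median -0.16). Their part in the low-oxygen result was not tested.

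Few other genes of the low-oxygen system differed. Of 22 glycolysis genes, which share Pfkfb3, Hk2 and Slc16a3 with the target list, 1 was lower in SD (Pfkfb3), 0 were higher and 21 did not pass (median -0.07). This median rested on the F344 pools too: it was 0.00, with 11 genes below 0 and 11 above, without F344 hyperoxia pool 2, and -0.15 without pool 1. Of 10 oxygen sensors and factor subunits 0 passed (median 0.00), with Hif1a at 0.07 and Epas1 at -0.12. Of 21 endothelial markers 0 passed, 14 lay below 0 and 7 above (median -0.08), and their mean level was 5.35 to 5.40 in F344 and 5.25 to 5.34 in SD. The 13 tip cell genes, which mark the leading cells of growing vessels, had 0 calls and a median of -0.12. Pericyte and astrocyte markers likewise had 0 calls, with medians of -0.05 and -0.08. Of 31 antioxidant genes 0 passed. Mt1, a metallothionein, was the lowest of them at -0.87 (adjusted p = 0.0913), with 8.4, 8.4 and 8.9 in F344 and 7.7 in both SD pools, and its other probe set stood at -0.98. Epo, the hormone of red cell formation, stood at 0.00 and Hmox1, a haem-degrading enzyme, at 0.05.

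Few retinal cell type markers passed, while the ganglion cell list, given below, lay mostly below 0 without a call. Grm6, the glutamate receptor of ON bipolar cells, read 7.5, 7.6 and 7.5 in F344 hyperoxia and 6.4 and 6.5 in SD hyperoxia, lower in SD without overlap (-1.08, SE 0.11, adjusted p = 3.15e-04). In room air SD read 6.6, 6.8 and 6.6 against 7.5 and 7.6, a gap of -0.88. Another bipolar gene, Car8, a carbonic anhydrase relative without enzyme activity, was higher in SD by 0.87 (6.0, 6.0 and 6.4 against 7.1 and 6.9, adjusted p = 0.0129), and the other 12 of 14 bipolar markers did not pass (median -0.01). Opn1sw, the short-wave cone opsin, was the 1 gene of 28 photoreceptor markers that passed, higher in SD by 0.65 (8.7, 8.9 and 8.8 against 9.5 and 9.4, adjusted p = 0.0199; list median -0.03). Grm6 passed in all 10 fits that left out an array. The Car8 call was lost on leaving out F344 hyperoxia pool 1 (adjusted p = 0.0755) or 2 (0.0647) or SD hyperoxia pool 1 (0.360) or 2 (0.112), and the Opn1sw call on leaving out F344 hyperoxia pool 1 (0.0966) or 3 (0.0540) or SD hyperoxia pool 1 (0.402) or 2 (0.181).

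Ganglion cell markers had 0 calls among 15, with 12 below 0 and a median of -0.15, and their mean level was 7.98, 8.08 and 8.23 in the F344 pools and 7.89 and 7.91 in SD. The neurofilament genes Nefl (-0.45) and Nefm (-0.55) were highest in F344 hyperoxia pool 3, at 9.3 and 9.4, and both stood at -0.25 without it. Amacrine and horizontal cell markers (17 genes, median 0.00) and markers of progenitors and Mueller glia (13 genes, median 0.12) had 0 calls each. Of these, Neurod4 stood at -0.52 (adjusted p = 0.0944) and the GABA-synthesising enzyme gene Gad1 at 0.47 (adjusted p = 0.404).

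The proliferation list turned on F344 hyperoxia pool 3. Of 34 cell cycle genes 1 was higher in SD (Prim1, a subunit of the DNA primase), 0 were lower, and 26 lay above 0 and 7 below (median 0.12). Mean levels of the list were 8.89, 8.95 and 8.68 in the F344 pools and 8.98 and 8.99 in the SD pools, and without pool 3 the median was 0.00. Prim1 did not depend on that pool: it read 8.9, 8.9 and 9.2 in F344 and 10.3 and 10.4 in SD, with no overlap (1.35, SE 0.16, adjusted p = 0.00156), and was 1.45 higher without it. Its call ended without SD hyperoxia pool 2 (adjusted p = 0.0655).

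The respiratory chain list moved the other way with the same pool. Of its 42 genes 0 passed, 37 lay below 0 and 5 above (median -0.15), and without F344 hyperoxia pool 3 the median was -0.05. That pool had the highest mean level of the list, 9.64, against 9.34 and 9.30 in the other F344 pools and 9.32 and 9.24 in SD. The 44 cytosolic ribosomal protein genes had 0 calls and a median of -0.04, and of 0.05 without that pool. In room air the medians of these lists were 0.20 and 0.29.

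Markers of blood and of tissues around the retina gave few differences. The alpha globin gene Hba-a3 was higher in SD, at 5.3, 5.7 and 5.9 in F344 and 6.4 and 6.7 in SD (0.92, SE 0.17, adjusted p = 0.0332). Its call ended without F344 hyperoxia pool 1 or 2 (adjusted p = 0.0921 and 0.0922), either F344 room-air pool (0.0838 each), SD hyperoxia pool 1 (0.194) or 2 (0.595), or SD room-air pool 1 (0.0629) or 2 (0.0731). Of 10 red blood cell genes 0 passed and 8 lay above 0 (median 0.07). Hbb-b1 stood at 0.80 (adjusted p = 0.568), and the mean level of the list was 5.03 to 5.09 in F344 and 5.16 to 5.27 in SD. Pigment epithelium, skeletal muscle, fibroblast, surface epithelium and microglia lists had 0 calls each in hyperoxia, with medians between -0.09 and -0.01. The part of blood and of surrounding tissue in the 68 strain differences was not tested.

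**Figure D5:**
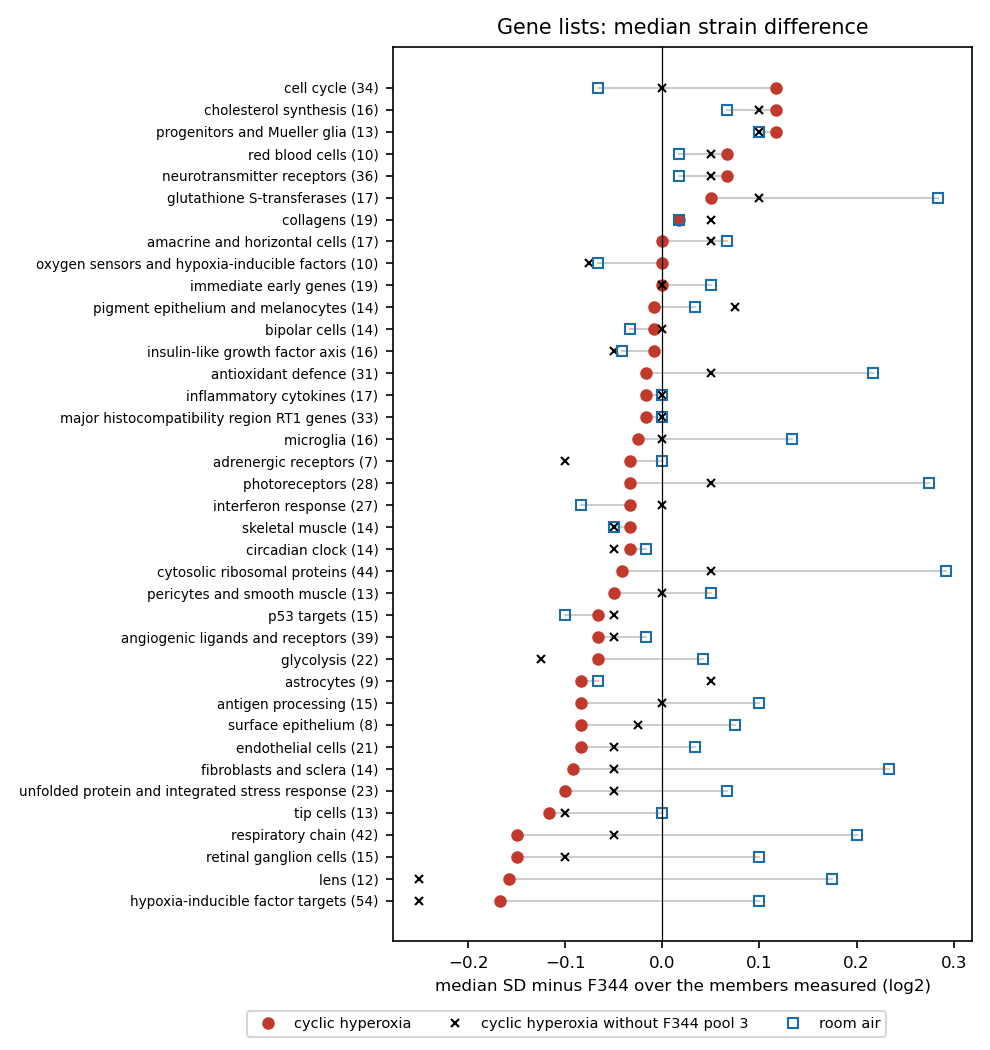
Median SD minus F344 (x axis, log2) over the measured members of 38 gene lists (y axis, number of members in parentheses), for cyclic hyperoxia (filled circles), for cyclic hyperoxia without F344 pool 3 (crosses) and for room air (open squares). The hypoxia-inducible factor targets (-0.17) and the lens list (-0.16) have the lowest medians in hyperoxia, near those of the respiratory chain and ganglion cell lists (-0.15 each). Without F344 pool 3 the targets and the lens list both stand at -0.25, and the cell cycle median moves from 0.12 to 0.00.

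The remaining lists had no calls in hyperoxia beyond those named. Col5a3 was the 1 gene lower among 19 collagens and Grm6 the 1 among 36 neurotransmitter receptors. There were 0 calls among 27 interferon response genes (median -0.03), 17 inflammatory cytokines (-0.02), 23 genes of the unfolded protein and integrated stress responses (-0.10), 15 p53 targets (-0.07), 16 cholesterol synthesis genes (0.12), 17 glutathione S-transferases (0.05), 19 immediate early genes (0.00), 14 clock genes (-0.03) and 7 adrenergic receptors (-0.03). Adra1b, an alpha adrenergic receptor, had the smallest p for the difference between exposures. It read 5.5, 5.5 and 5.7 in F344 and 5.8 in both SD pools in hyperoxia, and 6.5 and 6.7 in F344 and 6.0, 5.9 and 5.9 in SD in room air. SD thus stood 0.23 above F344 in hyperoxia (adjusted p = 0.755) and was lower in room air (-0.67, adjusted p = 0.0161), and the difference between exposures did not pass (adjusted p = 0.651). Besides the named genes, 53 of the 125 probe sets that passed in hyperoxia had no single gene symbol and are not described.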

How the data were processed

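The deposited table holds log2 expression values per probe set, rounded to 1 decimal. Per the submitters' processing notes the tools were RMA and Partek 6.4, whose order is not stated; background and scaling steps were not given in the sources used here. Genes were named from the platform annotation (323 probe sets with several symbols and 11922 with none were tested but not named), with current symbols and gene order from RefSeq GRCr8 (15067 of 15097 matched). A gene was represented by the probe set of highest mean, a choice that mattered for the 499 genes with several.

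The authors' log2 values were used unchanged. In R 4.3.3 with limma 3.58.1, lmFit with 1 mean per group (4 groups, 10 arrays, 6 residual degrees of freedom) and eBayes gave two-sided p-values, Benjamini-Hochberg adjusted over all 27342 probe sets. Code was tested on simulated data. Signal over background was not analysed, and the number of arrays limits precision.

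Members and gene lists were chosen with earlier results of these data known. Lists are described by counts and medians only, and some share members. Each count of calls in hyperoxia stands against 0.237% of all genes in either single direction. Named genes were the 20 largest rises and 20 largest falls that passed without overlap, up to 6 passing members of a list or the 3 with the largest difference, the 10 genes with the smallest p for the difference between exposures, 15 genes fixed by name, and passing neighbours in gene order; other genes named were chosen after their values were seen. Alternatives changed the probe sets tested, the eBayes settings, the normalization, array weights, the probe set rule, the arrays fitted, the replicate number as a block and a term for the arrays numbered 3. The arrays numbered 3 were taken to be those the study added later, an inference from their numbers.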

Additional observations from a re-analysis of the deposited data

How the results depend on the processing

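The counts of genes higher and lower in SD in hyperoxia (34 and 34) and in room air (54 and 25) were 88, 69, 99 and 60 with array weights, 68, 58, 137 and 79 with the added-array term, and 5, 7, 5 and 5 with only the groups compared (3 residual degrees of freedom). Among brighter probe sets 20 genes were lower in hyperoxia and 14 in room air. Leaving out 1 array at a time gave 11 to 42, 9 to 39, 11 to 83 and 8 to 38 genes. The hyperoxia counts were lowest without SD hyperoxia pool 1 (11 and 10) or 2 (11 and 9), and also fell without F344 hyperoxia pool 1 (18 higher) or 2 (22 each). The room-air counts were lowest without F344 room-air pool 1 (13 and 10) or 2 (11 and 8), were highest without F344 hyperoxia pool 3 (83 and 38), and fell without SD room-air pool 2 (32 and 16), SD room-air pool 1 (15 lower) or either SD hyperoxia pool (16 lower). Where 1 SD hyperoxia pool was left, it was assumed to vary like the other groups. Without both arrays numbered 3 the counts were 31, 25, 59 and 32. Replicate numbers were not taken as pairs, since residual correlations of same-numbered arrays ran from -0.0733 to 0.643 and 4 of 13 were over 0.1. Between F344 hyperoxia and SD room air, however, all 3 were (0.314, 0.397 and 0.643), and each array correlated best with its own number. Deviations sum to 0 within a group, and pool 3 stood apart in both groups, so these 3 values are not separate evidence. They are a hint of variation shared by the arrays numbered 3 and cannot show whether the other numbers match. Between the exposed groups the same-numbered values were -0.00243 and -0.0353. With the replicate block the counts were 57, 53, 107 and 65, and the cell cycle list turned from 26 above 0 to 22 below (median -0.02). The count for the difference between exposures was 0 in each alternative, and the fit of only the groups compared cannot give it. Of named genes under alternatives, 1724 values kept direction and side of the threshold, 318 fell below it and 18 rose above it. Gfap, an astrocyte gene that did not pass (0.12), was -0.033 without SD hyperoxia pool 1 (adjusted p = 0.971) and 0.27 without SD hyperoxia pool 2, a change of sign in a value near 0; the cause was not tested. Of list means, 824 moved by less than the spread between replicates and 12 by more, 10 of these among brighter probe sets. Rounding to 1 decimal limits small differences.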
